A study of Mus musculus with 12 samples.

Results

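Complement and coagulation genes encode plasma proteins that are made mainly by hepatocytes. Of these genes, 42 were chosen by name as a functional group, not by their measured values, though earlier results of these data were known. They were examined in livers of male mouse fetuses of strain 129/S6 (taconic) at 18.5 days post coitum. Of the 42, 38 had a probe set of their own among 19935 genes measured. C3, the central component of complement, Cfd, the protease that activates factor B, and Cpb2, an inhibitor of clot breakdown, were not matched to a probe set in the gene table used here, and the probe set of Klkb1 also names Cyp4v3. One group was wild type and the other lacked both macroH2A1 and macroH2A2, histone variants of the H2A family that are linked to repressed chromatin. Embryos of both genotypes were mixed and carried by wild-type recipient females, and the fetal livers were frozen. Each genotype had 6 arrays. Nothing in the labels says whether each array came from a separate fetus or which fetuses shared a recipient, so p-values measure only the spread between these samples, which may be technical. The labels name no cell type to which the deletion was limited.

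Complement is a cascade of serine proteases and binding proteins that marks surfaces and ends in a pore formed by the terminal components. Coagulation is a second protease cascade, in which clotting factors activate thrombin, and thrombin turns fibrinogen into fibrin. Plasmin then dissolves the clot. The liver makes most of these proteins before birth, and fetal liver is at the same time a site of blood formation, so its RNA comes from hepatocytes, red cell precursors and other blood cells.

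Macroh2a1 was lower in the double knockout by a log2 difference of -0.77 (standard error 0.058, limma adjusted p = 3.5e-05), and Macroh2a2 differed by -0.09 (limma adjusted p = 0.99). No source used here places either probe set inside or outside the deletion, so the value of Macroh2a2 checks no label. Median log2 values per array were 7.55 to 7.61, and precision is limited by the number of arrays. Values were spread most narrowly on replicates 5 and 6 of the double knockout and on replicate 6 of wild type, with interquartile ranges of 2.77, 2.81 and 2.81 against 2.89 to 3.02 on the other 9 arrays. The mean of 12 hepatocyte markers was 13.26 to 13.36 on wild-type arrays and 13.13 to 13.42 on double-knockout arrays. Tat, a liver enzyme that breaks down tyrosine, had the widest spread among them (SD 0.29 over wild-type and 0.95 over double-knockout arrays, n = 6 each), and the other 11 markers averaged 13.67 to 13.73 and 13.63 to 13.74. Of 9 measured lymphoid markers 7 had lower means, with a median difference of -0.19. Intestine markers averaged 7.53 on wild-type replicate 6 and at most 6.92 elsewhere. A bulk array cannot tell fewer cells of a type from less RNA per cell.

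No complement or coagulation gene passed the genotype test (limma, 38 tested, adjusted p from 0.992 to 0.998). Over all genes 0.015% passed it. At an unadjusted p under 0.05 there was 1 member, Masp1, which was lower in the double knockout, and 1.28% of all genes were lower at that level. The differences were small. They ran from -0.31 for C4b to 0.07 for Cfp on the log2 scale, and standard errors ran from 0.036 to 0.22. For 31 members the 95% interval of the difference lay wholly within 1.25-fold in either direction, and for 36 within 1.5-fold. Over all genes 94.2% of intervals lay within 1.25-fold. C4b and C9 were the members whose intervals reached past 1.5-fold. No member had genotypes that did not overlap, against 0.211% of all genes.

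The means of 31 members were lower in the double knockout and those of 7 were higher, while 41.0% of all genes had lower means. The median difference of the members was -0.04, and the median of all genes was 0.01. Most members are bright, and among genes above the median gene mean 53.8% had lower means, with a median of -0.0060. Of the 36 members among those genes, 30 had lower means. Of 12 measured hepatocyte markers, 10 had lower means, with a median difference of -0.02. After centring each array on its median, 33 members and 49.0% of all genes had lower means. The number with lower means ran from 28 to 35 when any 1 array was left out. It was 23 without both wild-type replicate 6 and double-knockout replicate 5, where the median was -0.0064. That pair was chosen for its low limma array weights, 0.45 and 0.57. On double-knockout replicate 5, 34 members lay below the wild-type mean, the most of any double-knockout array, so leaving it out favours a smaller count. The members with higher means were Cfp, C8g, C4bp, F7, F13b, Proc and Pros1.

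**Figure D1:**
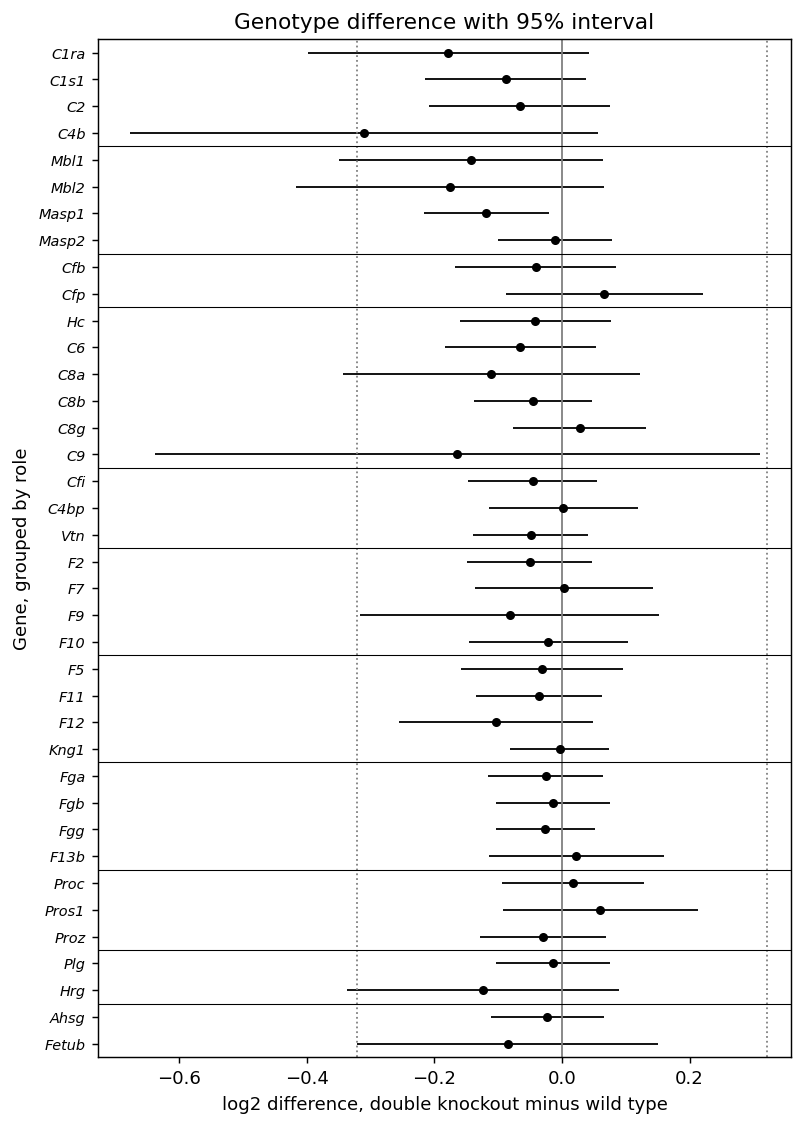
Each point is the log2 difference of 1 gene, double knockout minus wild type (n = 6 arrays each), with its 95% interval as a bar, and dotted lines mark 1.25-fold in either direction. Genes are grouped by role from the classical pathway at the top to the fetuins at the bottom, and only the interval of Masp1 leaves out 0.

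In the classical pathway all 4 measured members had lower means, with a median difference of -0.13, and none passed the test. C4b encodes complement component 4, which is cleaved on the target surface. Its log2 values were 11.35 at the lowest, 11.78 at the median and 12.08 at the highest in wild type. In the double knockout they were 10.87, 11.60 and 11.83. Replicates 3 and 5 of the double knockout lay below every wild-type array, and the other 4 lay within the wild-type range. The means were 11.76 ± 0.26 and 11.45 ± 0.42 (SD, n = 6 each), a difference of -0.31 with a 95% interval from -0.68 to 0.06 (limma adjusted p = 0.99). It was -0.19 without double-knockout replicate 5 and -0.13 without that array and wild-type replicate 6. C4b has a near-identical copy, C4a, whose probe set differed by -0.27, and signal shared between the copies cannot be separated here.

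C1ra and C1s encode the proteases of the first component, and the files' current symbol for C1s is C1s1. C1ra had log2 values of 8.95 at the lowest, 9.07 at the median and 9.26 at the highest in wild type, and 8.57, 8.99 and 9.21 in the double knockout. Double-knockout replicates 5 and 6, at 8.57 and 8.61, lay well below all other arrays. Its difference was -0.18, with a 95% interval from -0.40 to 0.04 (limma adjusted p = 0.99). C1s1 had values of 10.75, 10.81 and 10.91 in wild type, against 10.51, 10.72 and 10.90 in double-knockout livers. Of the 6 double-knockout arrays, 4 lay below every wild-type array, and the difference was -0.09 (95% interval -0.21 to 0.04, limma adjusted p = 0.99). C1ra and its copy C1rb also share a probe set, which was not used. C2, which encodes the protease that pairs with component 4, measured 9.98 ± 0.15 and 9.91 ± 0.09 (log2 value, SD, n = 6 each).

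The lectin pathway starts from mannose-binding lectins, which recognise sugars on microbes, and from their associated proteases. All 4 of its members had lower means, with a median difference of -0.13. Masp1 encodes one of those proteases. Its log2 values in wild type were 11.64, 11.76 and 11.79 (lowest, median and highest), and in the double knockout 11.51, 11.62 and 11.70. All 6 double-knockout arrays lay below the wild-type mean and 3 of them below every wild-type array. Wild-type replicate 6 was the lowest wild-type array. The difference was -0.12, with a 95% interval from -0.22 to -0.02 (limma unadjusted p = 0.021, adjusted p = 0.99), and it ran from -0.14 to -0.097 when any 1 array was left out.

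Mbl2 encodes mannose-binding lectin C. It measured 8.22, 8.34 and 8.47 in wild type, against 7.81, 8.15 and 8.65 in double-knockout livers (lowest, median and highest log2 value). Double-knockout replicate 1 was the highest of all 12 arrays, and replicates 3, 4, 5 and 6 lay below every wild-type array. The difference was -0.18 (95% interval -0.42 to 0.07, limma adjusted p = 0.99). Mbl1 encodes mannose-binding lectin A and measured 10.00, 10.26 and 10.29 in wild type, against 9.75, 10.02 and 10.32 in double-knockout livers. Double-knockout replicates 1 and 2 were above every wild-type array and replicates 3, 5 and 6 below, with a difference of -0.14 (95% interval -0.35 to 0.06, limma adjusted p = 0.99). Masp2, the protease that cleaves components 2 and 4, differed by -0.01, with a 95% interval from -0.10 to 0.08.

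**Figure D2:**
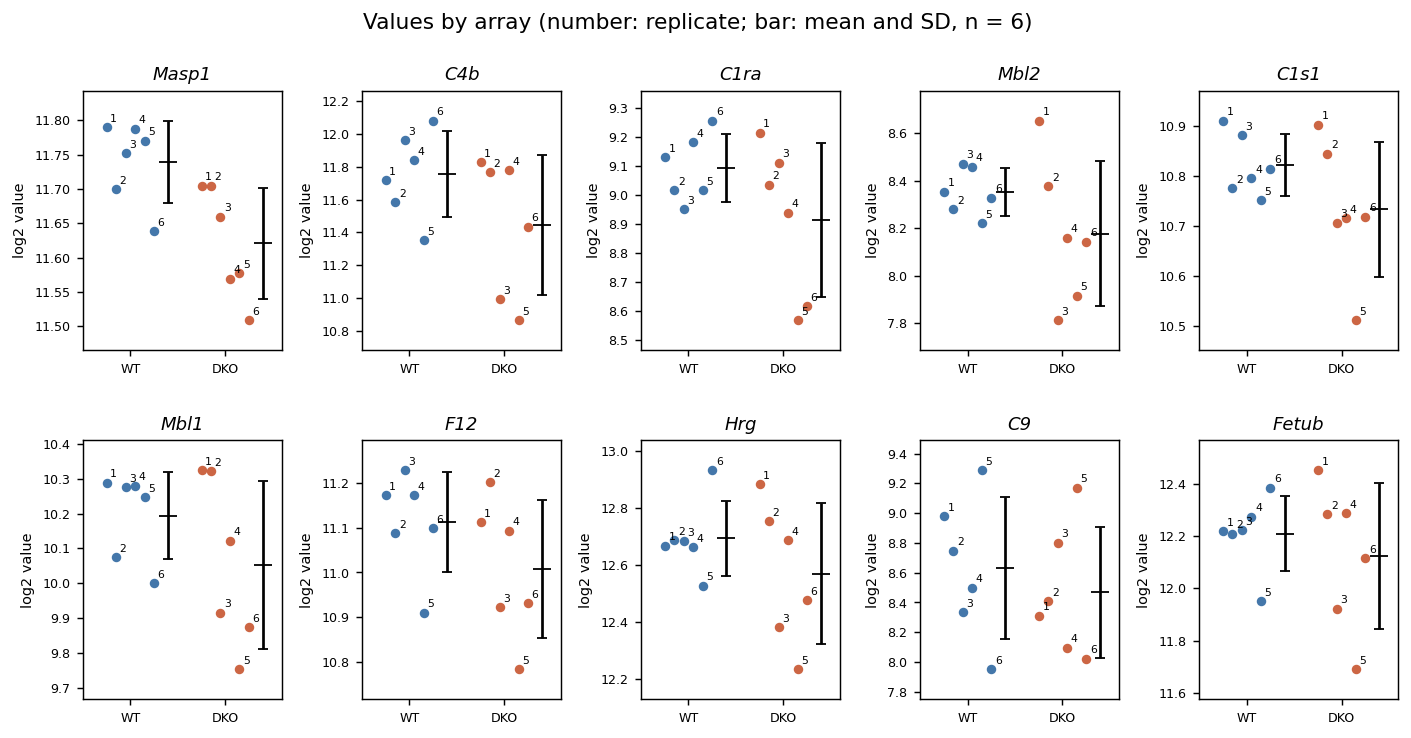
Log2 values of the 8 members of smallest p and of the 4 of largest spread within genotypes, 10 genes in all, for wild type (WT, blue) and double knockout (DKO, orange), with replicate numbers beside the points and mean and SD as bars (n = 6 arrays each). The vertical axes differ between genes and do not start at 0, and double-knockout replicate 5 is the lowest of the 12 arrays for C4b, C1ra, C1s1, Mbl1, F12, Hrg and Fetub.

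Of the alternative pathway, Cfb and Cfp were measured. Cfb, the protease of that pathway's convertase, measured 12.30 ± 0.07 and 12.26 ± 0.13 (log2 value, SD, n = 6 each), a difference of -0.04. Cfp encodes properdin, which stabilises the convertase and is made largely by myeloid cells. It measured 10.77 ± 0.17 and 10.83 ± 0.09 (SD, n = 6 each), and its difference of 0.07 had a 95% interval from -0.09 to 0.22. All 12 neutrophil and precursor markers measured were lower on average without macroH2A, with list means of 10.87 to 11.08 in wild type, against 10.74 to 10.88 in double-knockout livers. Of 13 macrophage markers, 7 had higher and 6 lower means, with a median difference of 0.03. The part of either list in the value of Cfp was not tested.

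Of the terminal pathway, whose products assemble into the membrane attack complex, 5 of 6 members had lower means. C9, which forms most of the pore, was the most variable member. Its log2 values were 7.95 at the lowest, 8.62 at the median and 9.29 at the highest in wild type, and 8.02, 8.36 and 9.17 in the double knockout. The genotypes overlapped over nearly the whole range, with a difference of -0.16 (95% interval -0.64 to 0.31, limma adjusted p = 0.99), which was -0.034 without wild-type replicate 5, -0.30 without wild-type replicate 6, also -0.30 without replicate 5 of the double knockout, and -0.44 without that pair.

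C9 ran apart from most members on several arrays. It was highest on wild-type replicate 5, at 9.29, and double-knockout replicate 5, at 9.17, where most other members were low. It was lowest on wild-type replicate 6, at 7.95, and double-knockout replicate 6, at 8.02. The mean of the 12 measured erythroid markers was 11.56 and 11.62 on the 2 arrays where C9 was highest. On the 2 where it was lowest the mean was 11.19 and 11.44. On double-knockout replicates 3 and 4 the erythroid mean was 11.64 and 11.38, and C9 measured 8.80 and 8.10. With the erythroid mean as a covariate the difference of C9 was -0.23, and the part of red cell content was not tested. The sign of that difference was negative in each of the 25 alternatives.

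Hc, which encodes complement component 5, measured 12.25 ± 0.03 in wild type, against 12.21 ± 0.13 in double-knockout livers (log2 value, SD, n = 6 each). C8a, C8b and C8g encode the 3 chains of component 8. C8a measured 10.83 ± 0.08 and 10.72 ± 0.30, C8b 13.25 ± 0.03 and 13.20 ± 0.08, and C8g 11.77 ± 0.10 and 11.80 ± 0.06 (SD, n = 6 each). The 3 chains thus had different spreads in the same double-knockout livers, widest for C8a. C6, a component that joins before the pore forms, measured 6.88 ± 0.06 and 6.81 ± 0.12. It was the 1 member whose mean lay under 6.91, the 95th percentile of the means of 1177 olfactory and vomeronasal receptor genes, so its value cannot be separated from background here.

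Regulators of complement had differences near 0. Cfi, the protease that inactivates components 3 and 4, differed by -0.05, with a 95% interval from -0.15 to 0.05. Vtn encodes vitronectin, which blocks pore insertion, and also differed by -0.05 (95% interval -0.14 to 0.04). C4bp, the binding protein of component 4, differed by 0.0023 (95% interval -0.11 to 0.12), and its sign changed with the scaling, to -0.015 after quantile normalization and -0.0092 after centring each array.

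Clotting factors that need vitamin K had small differences as well. F2, which encodes prothrombin, measured 12.98 ± 0.06 and 12.92 ± 0.08 (log2 value, SD, n = 6 each). F7, the factor that starts clotting with tissue factor, differed by 0.0024, a sign that turned with centring of each array (-0.0091), and F10, which cleaves prothrombin, by -0.02. F9, the factor missing in haemophilia B, differed by -0.08 with a 95% interval from -0.32 to 0.15. Its wild-type values lay between 9.70 and 9.89, while the double-knockout values ran from 9.36 to 10.13. Double-knockout replicate 1 was the highest of the 12 arrays and replicates 3, 5 and 6 lay below every wild-type array.

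Among cofactors and contact factors, all 4 measured members had lower means. F12 starts the contact pathway. It measured 10.91, 11.14 and 11.23 in wild type, against 10.78, 11.01 and 11.20 in double-knockout livers (lowest, median and highest log2 value). Double-knockout replicate 5 alone lay below every wild-type array. The difference was -0.10 (95% interval -0.26 to 0.05, limma adjusted p = 0.99). F5, the cofactor of F10, F11, a contact factor, and Kng1, which encodes kininogen, differed by -0.03, -0.04 and -0.0037, and the sign of Kng1 turned after quantile normalization, to 0.018. The probe set shared by Klkb1, which encodes plasma prekallikrein, and Cyp4v3 differed by -0.07 (95% interval -0.28 to 0.13) and cannot be assigned to either gene.

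The 3 fibrinogen chains were among the steadiest members. Fga differed by -0.03, Fgb by -0.01 and Fgg by -0.03, with 95% intervals of -0.12 to 0.06, -0.10 to 0.08 and -0.10 to 0.05. After quantile normalization Fgb differed by 0.0072. F13b, the carrier subunit of the fibrin cross-linking factor, differed by 0.02. Of the anticoagulants, Proc, which encodes protein C, differed by 0.02, its cofactor Pros1 by 0.06 and Proz, a cofactor of the protein Z-dependent inhibitor, by -0.03. Plg, the precursor of plasmin, differed by -0.01.

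Hrg encodes histidine-rich glycoprotein, which binds heparin and plasminogen. It measured 12.53, 12.68 and 12.93 in wild type, against 12.23, 12.58 and 12.89 in double-knockout livers (lowest, median and highest log2 value). Double-knockout replicates 3, 5 and 6 lay below every wild-type array, and the difference was -0.12 (95% interval -0.34 to 0.09, limma adjusted p = 0.99). Fetub, which encodes the protease inhibitor fetuin-B, measured 11.95, 12.22 and 12.39 in wild type, against 11.69, 12.20 and 12.45 in double-knockout livers. Double-knockout replicate 5 was the lowest and replicate 1 the highest of the 12 arrays. The difference was -0.09 (95% interval -0.32 to 0.15, limma adjusted p = 0.99). Ahsg, which encodes fetuin-A, a calcium-binding plasma protein, measured 14.09 ± 0.06 and 14.06 ± 0.05 (SD, n = 6 each).

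For most members the double-knockout arrays were spread more widely than the wild-type arrays. The SD over 6 arrays was larger in the double knockout for 32 of the 38 members, and for 55.9% of all genes. It was also larger there for 10 of 12 hepatocyte markers, 8 of 9 liver transcription factors and 18 of 24 complement genes outside the members. So it was for all 10 endothelial markers and all 6 megakaryocyte and platelet markers. Erythroid markers gave 6 of 12, macrophage 6 of 13, stellate and fibroblast 5 of 9 and lymphoid 4 of 9. The counts were 3 of 12 for neutrophil and precursor, 3 of 11 for exocrine pancreas and 1 of 9 for intestine markers. The intestine list mean was 7.53 on wild-type replicate 6 and at most 6.92 elsewhere, which widens the wild-type SD of some of its markers. Wider spread was thus not particular to the members. The median SD of the members was 0.062 over wild-type arrays and 0.12 over double-knockout arrays, and the median ratio of the SDs was 1.95, against 1.08 for all genes. The count of 32 lay between 31 and 34 when any 1 array was left out, and was 31 without both wild-type replicate 6 and double-knockout replicate 5 and 32 after quantile normalization. The 6 members with the larger SD in wild type were C2, Cfp, C8g, C9, C4bp and Ahsg. These counts describe genes measured in the same livers, which are not independent of each other, and were not tested.

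**Figure D3:**
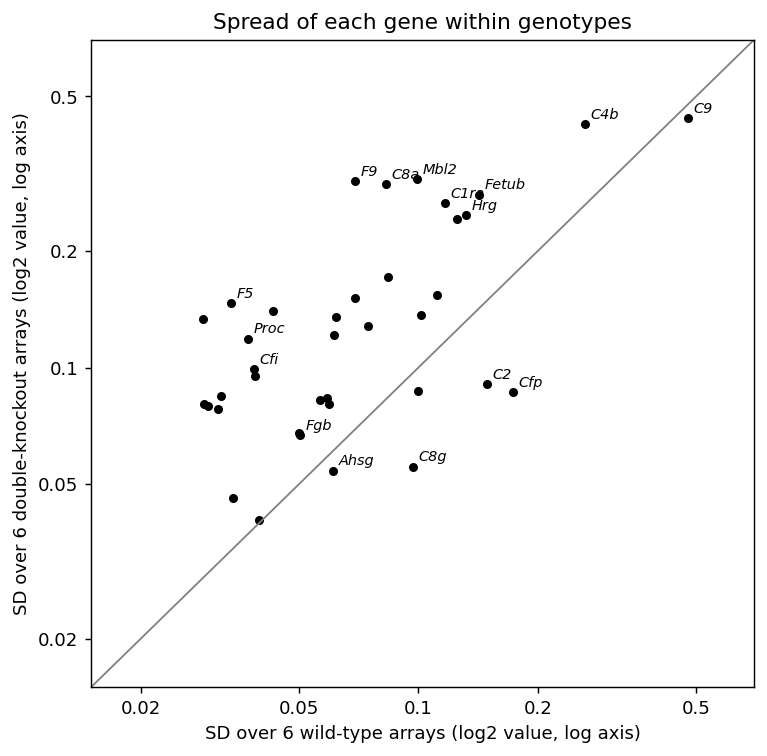
Each point is 1 of the 38 genes, placed by its SD over 6 wild-type arrays and over 6 double-knockout arrays (log2 values, both axes logarithmic), and the line marks equal SDs. Of these genes, 32 lie above the line, with Hc (point not labelled), F9 and F5 farthest above it and Cfp, C2 and C8g below.

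The double-knockout arrays differed in how many members were low. Double-knockout replicate 5 was below every wild-type array for 28 of 38 members (20.6% of all genes), replicate 3 for 25 (11.9% of all genes) and replicate 6 for 14 (16.3% of all genes). Replicates 1, 2 and 4 were below for 1, 6 and 7 members, against 10.7%, 7.08% and 12.3% of all genes. Replicate 1 was above every wild-type array for 15 members, and 16.6% of all genes were. The median member lay 0.07 above the wild-type mean on replicate 1, and -0.14, -0.11 and -0.08 from it on replicates 5, 3 and 6. In wild type these medians ran from -0.03 on replicate 5 to 0.02 on replicate 4.

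**Figure D4:**
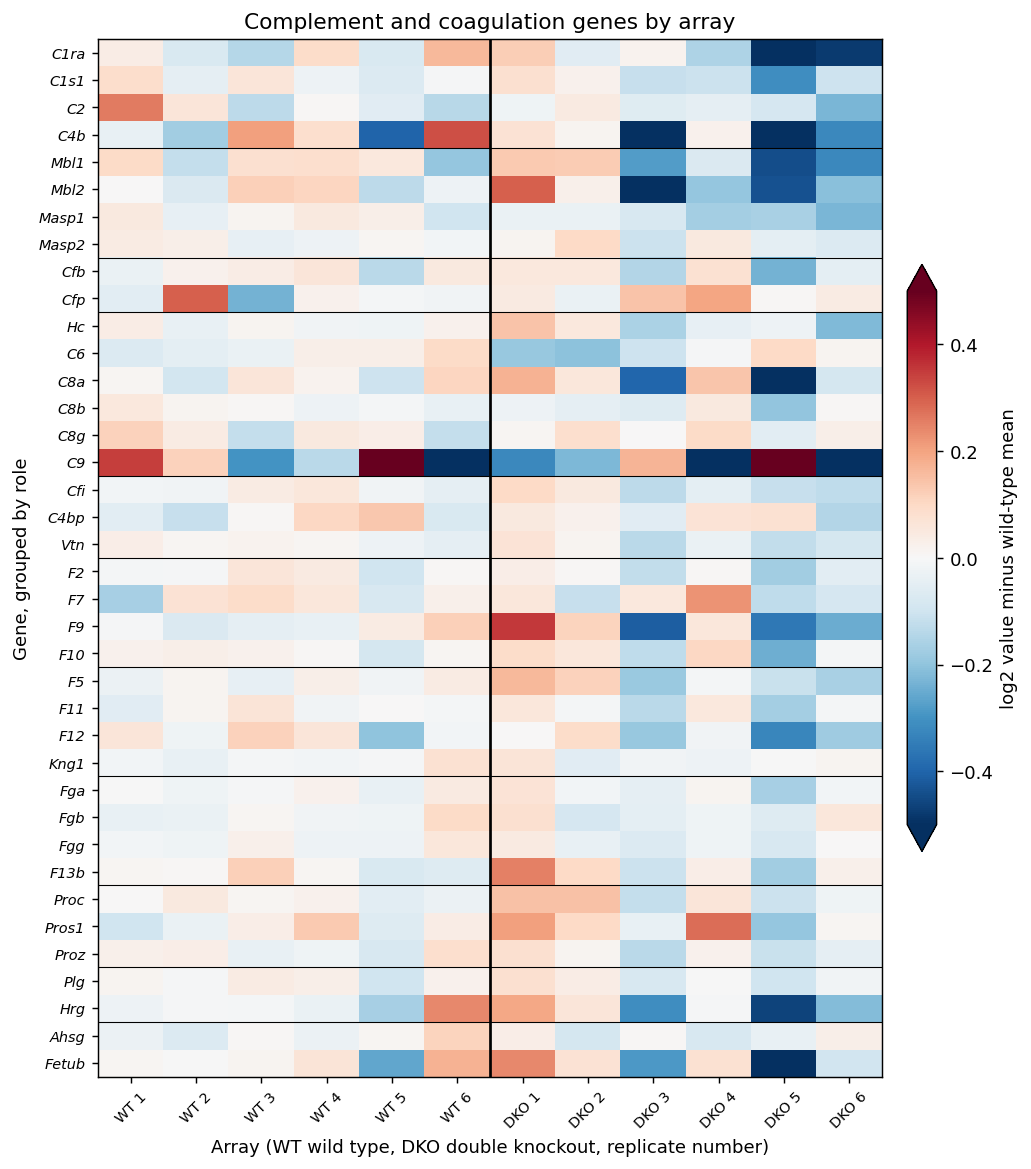
Colours give the log2 value of each of 38 genes on each of 12 arrays minus that gene's wild-type mean, with genes grouped by role and a thick line between genotypes. Blue dominates the columns of double-knockout replicates 3, 5 and 6 in most groups, replicate 1 is mostly red, and the row of C9 runs otherwise.

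Other measures moved on the same arrays. The log2 value of Tat was 7.54 and 7.78 on replicates 5 and 3 of the double knockout and 9.88 on its replicate 1, against 8.71 to 9.45 in wild type. The other 11 hepatocyte markers averaged 13.63, 13.66 and 13.67 on double-knockout replicates 5, 6 and 3, the lowest of the 12 arrays. They averaged 13.74 on replicate 1, the highest. Some of these gaps were very small: double-knockout replicates 2 and 4 also averaged 13.67, and wild-type replicate 6 averaged 13.73. Apoa1, Apoa2, Apoh, Hpx and Ambp, like Tat, were lowest of the 12 arrays on double-knockout replicate 5. They measured 13.91, 13.41, 13.47, 12.82 and 13.48 there. Alb, at 14.22, Afp, at 13.87, and Trf, at 14.21, were not low on that array. Of the 10 endothelial markers, all had the larger SD in the double knockout. Their list means were 9.16, 9.26 and 9.32 on double-knockout replicates 5, 6 and 3, below the wild-type range of 9.33 to 9.45, and 9.468, 9.469 and 9.496 on replicates 1, 2 and 4, above it. Erythroid list means were highest on double-knockout replicates 3 and 5, at 11.64 and 11.62. Wild-type replicate 6, with a narrow distribution like double-knockout replicates 5 and 6, was not low for the members. With the interquartile range of each array as a covariate, 29 members had lower means and the median was -0.025, and with the erythroid mean these were 31 and -0.034. The 11 measured markers of exocrine pancreas, a neighbouring tissue, all had higher means in the double knockout, with a median difference of 0.59. Their list means ran from 7.09 to 10.01 on wild-type arrays and from 7.19 to 10.05 on double-knockout arrays. They were 9.97 on double-knockout replicate 5 and 7.19 on replicate 3, both low for the members. The part of these measures in the spread was not tested.

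Several members lie next to each other in the genome, and the SDs of neighbours are set side by side here. Ahsg, Fetub and Hrg are consecutive protein-coding genes on chromosome 16, with Kng1 beyond 1 more gene. In the double knockout the SD was 0.28 for Fetub and 0.25 for Hrg, but 0.05 for Ahsg and 0.04 for Kng1. C8a and C8b, consecutive on chromosome 4, had SDs of 0.30 and 0.08. F7, F10 and Proz, consecutive on chromosome 8, had 0.14, 0.14 and 0.08, and Fgg, Fga and Fgb, consecutive on chromosome 3, had 0.05, 0.08 and 0.07. The 8 members with mean values above 13, Ahsg, Kng1 and C8b among them, had SDs within genotypes (pooled) of 0.040 to 0.064, and the other 30 members 0.060 to 0.46. Whether signal near the top of the scale was compressed was not tested.

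Promoters are shown for the fibrinogen genes Fgb and Fga, of small spread, for F9 and C8a, of larger spread, and for C9, which ran otherwise. These 5 were chosen after their values were seen. Fga differed from C8a in the size of its spread more than in its pattern. Like C8a, it was highest of all arrays on double-knockout replicate 1 (13.11) and lowest on replicate 5 (12.87). Each sequence is the 250 bases before the transcription start, from RefSeq on GRCm38.p6, read 5′ to 3′ along the gene. The reference is of strain C57BL/6J, not the strain studied. They lie at chr3:83049864-83050113 on the minus strand (Fgb), chr3:83025903-83026152 on the plus strand (Fga), chrX:59999214-59999463 on the plus strand (F9), chr4:104876399-104876648 on the minus strand (C8a) and chr15:6445096-6445345 on the plus strand (C9). Capitals mark matches on either strand to GTTAAT, the core of the motif of the liver factor HNF1, and to TTGCNNAA, the C/EBP motif.
Fgb: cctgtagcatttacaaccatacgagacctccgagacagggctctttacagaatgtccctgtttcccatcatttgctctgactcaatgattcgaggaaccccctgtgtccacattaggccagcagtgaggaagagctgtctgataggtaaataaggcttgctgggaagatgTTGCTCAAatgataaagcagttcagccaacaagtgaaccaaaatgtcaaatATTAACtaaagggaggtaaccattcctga
Fga: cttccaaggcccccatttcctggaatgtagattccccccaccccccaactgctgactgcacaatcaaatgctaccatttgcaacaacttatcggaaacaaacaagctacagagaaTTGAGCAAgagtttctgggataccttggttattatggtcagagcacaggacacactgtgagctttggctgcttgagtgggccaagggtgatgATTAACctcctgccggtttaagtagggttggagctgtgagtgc
F9: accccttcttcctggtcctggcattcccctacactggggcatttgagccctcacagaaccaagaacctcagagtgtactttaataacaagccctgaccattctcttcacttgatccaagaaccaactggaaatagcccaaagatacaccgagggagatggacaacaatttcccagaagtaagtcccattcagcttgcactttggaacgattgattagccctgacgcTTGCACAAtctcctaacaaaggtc
C8a: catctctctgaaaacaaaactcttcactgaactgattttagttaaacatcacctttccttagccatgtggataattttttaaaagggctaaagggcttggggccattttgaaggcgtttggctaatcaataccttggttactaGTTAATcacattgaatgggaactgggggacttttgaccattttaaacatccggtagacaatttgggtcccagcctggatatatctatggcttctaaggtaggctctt
C9: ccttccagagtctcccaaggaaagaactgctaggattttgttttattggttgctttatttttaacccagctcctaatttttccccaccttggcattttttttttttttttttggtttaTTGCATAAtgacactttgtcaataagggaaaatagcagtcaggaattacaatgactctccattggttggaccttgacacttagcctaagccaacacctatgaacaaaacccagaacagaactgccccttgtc

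Fgb and Fga each held both motifs, F9 and C9 a C/EBP match alone, and C8a an HNF1 match alone. In F9 the C/EBP match lay 24 to 17 bases before the start. Over the 30 members with a promoter in the table (first listed start of each gene), GTTAAT was found in 11 (36.7%), against 6.52% of 27025 promoters of the same length. TTGCNNAA was found in 8 (26.7%), against 9.55% of all. TTCNNNGAA, the STAT motif, was found in 6 (20.0%), against 7.18%, and TGTTTAC, a FOXA motif, in 1 (3.33%), against 3.09%. TATAAA was found in 3 (10.0%) against 12.97%, and CAAAGTCCA, an HNF4 motif, in 0 against 0.381%. Both strands were searched and motifs may overlap each other. Matches are letters in a window, not measured binding sites, and whether they bear on the spread of a gene was not tested.

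Other genes of these pathways did not pass the test either (limma), and at an unadjusted p under 0.05 there were F13a1 and Stat3. Of 24 measured complement genes outside the members, which include C1q chains, receptors and membrane regulators, 14 had lower means, with a median difference of -0.02. Cd59a, which blocks the pore on host cells, differed by 0.13 and Itgam, a chain of complement receptor 3, by -0.13. Of 23 measured genes of coagulation and fibrinolysis, 10 had lower means and the median was 0.02. F13a1, the catalytic subunit of the fibrin cross-linking factor, which megakaryocytes and macrophages make, differed by 0.14 (95% interval 0.02 to 0.26, limma unadjusted p = 0.026, adjusted p = 0.99). Tfpi, the inhibitor of the tissue factor pathway, differed by 0.13 and Cpn1, a carboxypeptidase of plasma, by -0.10.

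The machinery that makes and regulates these factors showed differences of similar size. Of 7 genes of the vitamin K cycle and factor export, 5 had lower means. Furin, a protease that trims clotting factor precursors, differed by -0.10, Ggcx, the vitamin K-dependent carboxylase, by -0.04 and Nqo1, a quinone reductase, by 0.05. Of 9 measured liver transcription factors that act on these genes, 7 had lower means, with Prox1 at -0.12, Nr1h4, the bile acid receptor, at -0.08 and Hnf4a at -0.07. All 5 genes of interleukin-6 signalling, which drives the acute phase response, had lower means. Stat3 measured 10.93 ± 0.05 and 10.79 ± 0.12 (log2 value, SD, n = 6 each), a difference of -0.14 (95% interval -0.25 to -0.02, limma unadjusted p = 0.021, adjusted p = 0.99), and 5 of 6 double-knockout arrays lay below the wild-type mean. Il6st and Il6ra, the receptor chains, differed by -0.08 and -0.05. Jak1 and Socs3 differed by only -0.01 and -0.0038, and 4 of 6 double-knockout arrays lay above the wild-type mean of Socs3. The interleukin-6 list mean was 10.08 on double-knockout replicate 5 and 10.22 on replicate 3, with wild-type replicate 5 at 10.20 between them and the other 9 arrays higher.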

How the data were processed

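Total RNA of fetal liver, 250 ng for each of 12 samples, was labelled with the Ambion WT Expression Kit and measured on 1 array each, per the labels' protocols. The authors deposited log2 values per probe set, made with Affymetrix Expression Console per the submitters' processing notes. The sources used here do not give its version, summarisation or build, and the log base was taken from the range of the values. Scanner files were not used here.

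Of 28815 probe sets, 21780 name 1 gene in the platform's gene table, 1605 name several and 5430 are not listed. Symbols were updated by gene ID (21689 found, GRCm38.p6), and each of 19935 genes took its probe set of highest mean. Genotypes were compared over all genes with limma 3.58.1 in R 4.3.3 (lmFit, eBayes, 2-sided, Benjamini-Hochberg adjusted p under 0.05). On simulated data over 19935 genes it recovered 66% of 50 genes changed by 1.25-fold. Of 50 genes at each larger fold it recovered 96% at 1.5-fold and at 2-fold, and 100% at 3-fold, with 12 false calls in all. The genes of all folds were changed in the same simulation, with noise independent between genes. In the measured data only 3 genes passed, so the cutoff was stricter and these rates do not apply. Chil3, with a log2 difference of -0.41, had a limma adjusted p of 0.64 there.

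The members and lists were chosen with earlier results of these data known. Every member is named. Values by array are given for the 8 of smallest p and the 4 of largest SD within genotypes. From each other pathway list the 3 genes of smallest p are named, with Jak1 and Socs3 added. Alternatives were other scalings, filters on dim genes, priors, covariates, array weights, a block for the replicate number, other probe set choices and left-out arrays.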

Additional observations from a re-analysis of the deposited data

Results flagged for a closer look

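Of 106 groups of 6 arrays examined for 53 named genes, 5 held an array far from the others, where chance gives about 1 in 20 groups. Each lay in wild type. On wild-type replicate 5, F10 measured 11.89 against 11.99 on the next array, Plg 13.15 against 13.24 and Hnf4a 11.96 against 12.04 (log2 values). On wild-type replicate 6, Fgb measured 13.94 against 13.85 on the next array and Kng1 13.87 against 13.79.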

How the results depend on the processing

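No member passed the limma threshold under any of 25 alternatives, where the lowest adjusted p was 0.803 (Masp1 without wild-type replicate 6), and 24 of 38 members kept their sign throughout. Same-number arrays correlated at 0.20, -0.18, 0.22, 0.33, 0.17 and 0.49 for replicates 1 to 6 (deviations from the genotype means), and replicates 3, 4, 5 and 6 correlated best with their own number, a hint of pairing from the data. As the labels state no pairing and replicate 2 lay below 0, the numbers were not used as pairs. With them as a replicate block limma called 2 genes lower in place of 3, and 31 members had lower means as before. Leaving out 1 array gave 2 to 6 genes called lower and 0 to 1 called higher, and 1 was called higher with pancreas markers as a covariate. Centring each array left 3 members below all wild-type arrays on double-knockout replicate 4, in place of 7. Signs turned for small differences. Without both wild-type replicate 6 and double-knockout replicate 5 these were Ahsg (0.0022), C4bp (-0.028), Cfb (0.0075), F10 (0.025), Fetub (0.037), Fga (0.012), Fgb (0.015), Kng1 (0.011), Nqo1 (-0.014), Plg (0.0077) and Proz (0.0035). Quantile normalization turned C4bp (-0.015), Fgb (0.0072) and Kng1 (0.018), and centring turned C4bp (-0.0092) and F7 (-0.0091). Array weights turned C4bp (-0.012), F7 (-0.0099) and Kng1 (0.0077), and the interquartile range as a covariate F10 (0.0038) and Masp2 (0.0064). Erythroid markers turned C4bp (-0.00053) and Kng1 (0.00050), and pancreas markers C4bp (-0.015). Leaving out 1 array gave ranges across 0 for C4bp (-0.020 to 0.032), F10 (-0.047 to 0.023), F13b (-0.024 to 0.061), F7 (-0.042 to 0.028), Fetub (-0.15 to 0.0021), Fga (-0.045 to 0.0027), Fgb (-0.033 to 0.0051), Kng1 (-0.017 to 0.012), Masp2 (-0.033 to 0.0087), Nqo1 (-0.028 to 0.10), Plg (-0.033 to 0.0035) and Proc (-0.0084 to 0.045). The cause was not tested. The counts of spread and of members below all wild-type arrays were recomputed, and Tat left out of the hepatocyte list, under settings chosen after seeing the data. Signal over background on each array was not analysed here.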
